A study of Mus musculus with 3 samples.

Results

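Retained-intron transcripts are annotated RNAs of a gene in which a stretch that is normally spliced out stays between 2 exons. Here they were described in the cytosol of mouse bone marrow-derived macrophages. A transcript was taken when the annotation gives it the biotype retained_intron, when its gene also has a protein_coding transcript, and when its mean expected count (estimated reads assigned to it) over the libraries was 10 or more. That rule kept 5838 of the 21421 retained-intron transcripts of coding genes, among 141862 annotated transcripts in all. They belong to 3622 of the 9120 coding genes that have such a transcript. The values that chose them are the expected counts themselves, so levels and numbers of these transcripts are a description.

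The cells were primary macrophages of C57BL/6J mice, grown from marrow, and total RNA of their cytosolic fraction was sequenced after ribosomal RNA was depleted. All of them had 100 ng/ml of Lipid A, the part of bacterial lipopolysaccharide that the receptor TLR4 senses, for 12 h, then 12 h without it, and were taken at 0 min of a second exposure. There was 1 group of 3 libraries, biological replicates 1, 2 and 3, with no untreated and no restimulated group. The labels give separate biosamples under 1 donor identifier, do not say whether they were separate animals or pools, and give neither sex nor age. Differences between libraries therefore measure the spread between these samples, which may be technical.

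Splicing removes introns in the nucleus, and an RNA that keeps one is often held there or degraded. When such an RNA reaches the cytosol, a stop codon in the retained intron can end translation early and expose it to nonsense-mediated decay, the pathway that destroys messages with premature stops. Regulated intron retention is known among genes of splicing factors and in immune cells. SR proteins, which bind exons and recruit the spliceosome, are known to control their own messages through such non-coding transcripts. A table of transcript counts does not show these events directly, because a read from an exon that several transcripts share is split between them by an estimate.

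Expected counts on transcripts totalled 28981177, 53119940 and 46783133 in replicates 1, 2 and 3, in which 3 counts correspond to 0.104, 0.0565 and 0.0641 CPM (counts scaled to a common library total). All 9 macrophage markers were at 1 TPM (a transcript level normalised for length and library total) or more in every library, with sums of 7860, 7794 and 8817 TPM. Of 17 markers of other marrow and connective tissue cells, 3 reached that level, S100a8, S100a9 and Cd79b, and 6 were listed at 0. Their sums were 5.85, 9.97 and 12.0 TPM. Replicate 3 stood apart in RNAs that are known to stay in the nucleus. Malat1, a nuclear speckle RNA, was at 817, 540 and 7725 CPM, which is 11.4-fold higher in replicate 3 than the mean of replicates 1 and 2. Neat1, the scaffold of paraspeckles, was 7.27-fold higher there, Firre 5.31-fold, Airn 3.55-fold and Kcnq1ot1 53.8-fold. Xist, whose level also depends on sex, was at 15.6, 8.23 and 597 CPM, and Meg3 and Tsix were listed at 0. The number of transcripts, the high shares, the total share and the calls between libraries are given below with and without replicate 3. The gene lists and the comparison by level of share are not given without it.

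The sequences of 7 short introns show what several of the most abundant or highest-share transcripts add to the coding message. Each lies whole inside an exon of a retained-intron transcript, is an intron of a coding transcript of the same gene, and lies in its coding part. They were read from the GENCODE M21 transcripts on GRCm38, 5′ to 3′ on the gene's strand. Capitals mark the GT at the start, the AG at the end and the first stop codon in the reading frame of the upstream exon. In the Ncl intron that stop begins at base 2 and runs into the GT.
Mrps26-201, intron 2 of Mrps26-202, chr2:130564228-130564307, plus strand: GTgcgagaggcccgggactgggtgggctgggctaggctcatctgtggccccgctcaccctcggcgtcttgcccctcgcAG
Prelid1-202, intron 3 of Prelid1-201, chr13:55324445-55324526, plus strand: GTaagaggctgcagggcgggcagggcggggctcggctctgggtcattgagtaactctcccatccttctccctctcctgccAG
Tap2-202, intron 6 of Tap2-201, chr17:34212068-34212229, plus strand: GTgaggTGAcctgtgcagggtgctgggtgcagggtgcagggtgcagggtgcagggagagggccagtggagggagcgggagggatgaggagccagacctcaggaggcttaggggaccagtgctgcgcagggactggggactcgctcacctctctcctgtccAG
Ncl-202, intron 10 of Ncl-201, chr1:86352320-86352509, minus strand: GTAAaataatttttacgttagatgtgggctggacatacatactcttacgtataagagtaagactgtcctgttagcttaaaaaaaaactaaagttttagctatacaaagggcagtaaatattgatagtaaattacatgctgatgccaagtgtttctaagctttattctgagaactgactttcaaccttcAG
Psmb8-205, intron 3 of Psmb8-203, chr17:34199381-34199570, plus strand: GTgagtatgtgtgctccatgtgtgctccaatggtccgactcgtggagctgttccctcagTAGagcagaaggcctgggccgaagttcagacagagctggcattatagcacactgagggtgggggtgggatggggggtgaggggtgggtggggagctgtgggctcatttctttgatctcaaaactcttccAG
Pirb-202, intron 6 of Pirb-201, chr7:3716891-3717117, minus strand: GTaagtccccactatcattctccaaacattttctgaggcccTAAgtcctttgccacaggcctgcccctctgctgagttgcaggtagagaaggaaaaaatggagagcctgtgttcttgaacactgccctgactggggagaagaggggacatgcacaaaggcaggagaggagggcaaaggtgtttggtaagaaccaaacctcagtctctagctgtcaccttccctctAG
Slc15a3-203, intron 7 of Slc15a3-201, chr19:10857339-10857629, plus strand: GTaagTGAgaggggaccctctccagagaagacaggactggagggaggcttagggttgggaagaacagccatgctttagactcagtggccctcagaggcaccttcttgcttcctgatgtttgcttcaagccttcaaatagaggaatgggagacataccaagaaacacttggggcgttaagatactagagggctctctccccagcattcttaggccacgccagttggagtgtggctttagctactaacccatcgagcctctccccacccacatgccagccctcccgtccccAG
The introns of Mrps26 and Prelid1, 80 and 82 bases long, hold no stop in that frame. In Tap2 the stop begins at base 7 of 162, in Slc15a3 at base 6 of 291, in Pirb at base 42 of 227 and in Psmb8 at base 60 of 190. GC content was 72.5% in the Mrps26 intron, 67.3% in that of Tap2 and 32.6% in that of Ncl.

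Across all of these transcripts, 4037 different introns were held whole, by 2475 of the 5838 (42.4%). The others hold no whole intron of a coding transcript. The whole introns were short, with a median of 396 bases and an interquartile range of 154 to 969 bases, against a median of 1390 bases for the other 54912 introns of the same genes. The introns of all coding genes at a mean of 100 or more counts had a median of 1410 bases. Of the retained introns 97.8% started with GT and ended with AG, and 90.6% lay in the coding part, 8.05% before it and 1.39% after it. The length was a multiple of 3 in 32.8%, near the 33.1% of the other introns of those genes. An in-frame stop was found in 3203 of the 3513 coding introns that could be read (91.2%), at a median of base 35. A gene for a small RNA lay inside 58 of the introns. These features come from the annotation and were not used by the rule, although a long intron is also less likely to be annotated as retained whole.

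**Figure D1:**
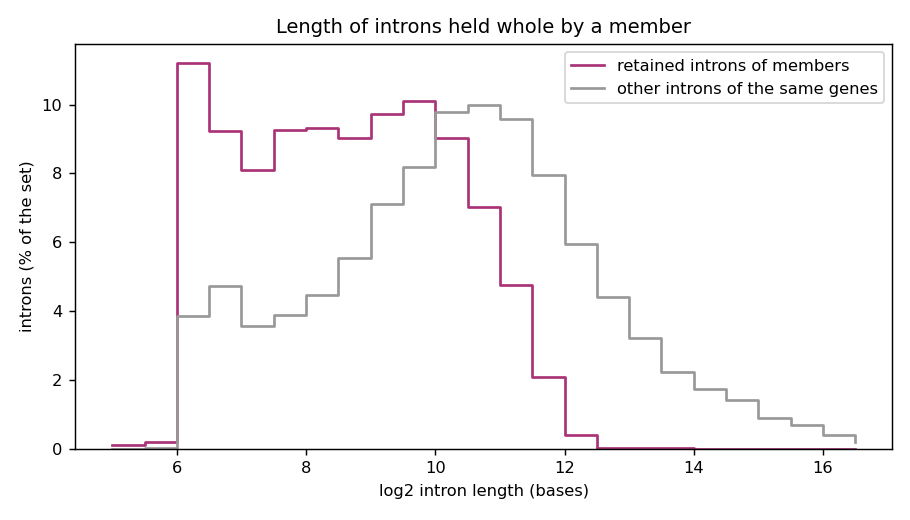
Length of the introns that a retained-intron transcript holds whole, as log2 bases (x axis), against the share of introns in each half-unit bin (y axis, %), with the other introns of the same genes in grey. The retained introns, with a median of 396 bases, lie to the left of the others, with a median of 1390 bases.

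Most of these transcripts held a small share of their gene's counts. The median share was 0.405%, 0.327% and 2.70% in replicates 1, 2 and 3, and the upper quartile was 1.81%, 1.68% and 6.44%. Replicate 3 was the highest at both points, but 3129 of the transcripts fall below the minimum without its counts. Among the 2709 that also pass without replicate 3, the median share was 1.60%, 1.53% and 3.86%. A share of 1% or more in every library was reached by 1537 transcripts, 10% or more by 369, and 25% or more by 132. At the low edge of the rule, Tma16-204 had 2.00, 3.00 and 25 counts and Phip-211 had 2.00, 2.00 and 26, just inside, while Slc25a11-202 had 5.85, 9.34 and 14.8 and Ttyh3-203 had 0, 1.46 and 28.5, just outside. On both sides of that edge replicate 3 supplied the largest part of the counts. Counts of 10 or more were found for 2290, 2912 and 5748 of the transcripts in replicates 1, 2 and 3, and for 1992 in every library. Without replicate 3 the rule keeps 2749, of which 2709 are among the 5838.

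A high share, 50% or more of the gene's counts in every library in genes with a mean of 100 or more, was found for 38 transcripts of 38 genes. By comparison, 26.6% of all transcripts at 10 or more counts in such genes with at least 2 transcripts reached it. Because the same shares chose them, nothing is read from that number. Their mean shares ran from 51.8% to 99.7%, with a median SD over the libraries of 3.85 percentage points, and their mean levels from 0.457 to 101 TPM. Just inside the limit, Atg4d-203 had 67.1%, 60.6% and 50.6% and Zcchc24-202 had 50.6%, 52.3% and 52.5%. Just outside it, Taf1d-203 had 65.7%, 48.9% and 61.6% and Acadsb-207 had 65.0%, 56.0% and 48.7%. Without replicate 3, 43 transcripts pass, and all 38 are among them. At the level of genes, all retained-intron transcripts together held 50% or more of the counts in every library in 45 of 6120 genes.

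**Figure D2:**
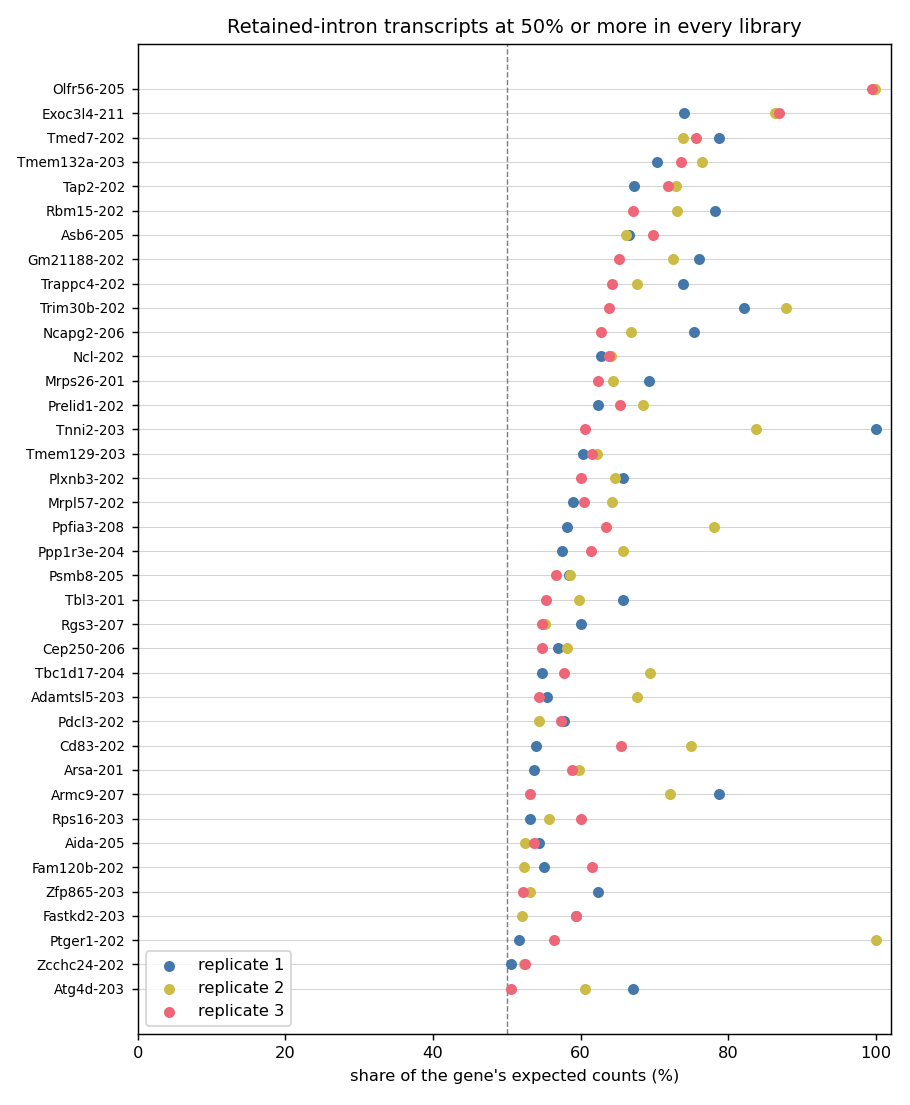
Share of the gene's expected counts (x axis, %) held by each of the 38 high-share transcripts (rows), 1 point per library, with the 50% limit dashed. Olfr56-205 lies near 100% in every library, and most others between 50% and 80%, with the widest ranges over the 3 libraries in Ptger1-202, Tnni2-203, Armc9-207 and Trim30b-202.

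The antigen presentation genes hold 2 of the 38. Tap2-202 belongs to the gene of a subunit of the TAP transporter, which carries peptides into the endoplasmic reticulum for class I molecules. It had 3794, 5915 and 6666 counts, which is 67.2%, 72.9% and 71.8% of Tap2, with posterior SDs (the uncertainty of the assignment, deposited with the counts) of 61.0, 61.4 and 71.8 counts. The shares lay within 6 percentage points of each other, and the tables made directly from the reads gave 66.0%, 69.3% and 69.2%. Psmb8-205 belongs to the gene of an immunoproteasome subunit that cuts proteins into such peptides. It had 5336, 8224 and 7564 counts, or 58.4%, 58.6% and 56.7% of Psmb8, and the highest level of the 38, at 101 ± 14.7 TPM (SD, n = 3). By TPM its share of the gene was 47.3%, 47.7% and 46.1%, under 50% in every library. Its neighbour Gm20496, annotated on the opposite strand, covers 30.5% of its bases, and antisense genes cover 26.3% of those of Tap2-202. No source used here says if strand was used in counting, so reads of such partners cannot be told apart.

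Among genes of RNA metabolism with a high share, Ncl encodes the nucleolar protein nucleolin. Ncl-202 had 3754, 9080 and 7173 counts, or 62.7%, 64.1% and 63.8% of the gene, an SD of 0.728 percentage points. It holds 2 whole introns, and 22.2% of its bases are in no other transcript of Ncl. Rbm15-202, of an RNA-binding protein that guides messenger RNA methylation, had 78.2%, 73.0% and 67.1% of its gene, lowest in replicate 3. It is 1 unspliced exon of 5967 bases, of which 51.6% lie in introns of coding transcripts. Rps16-203, of a ribosomal protein, had 53.2%, 55.7% and 60%. Mrps26-201 and Mrpl57-202, of mitochondrial ribosome proteins, had 69.2%, 64.4% and 62.3%, and 59.0%, 64.3% and 60.5%.

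Genes of membrane traffic and mitochondria gave further high shares. Tmed7-202, of a p24 cargo receptor between endoplasmic reticulum and Golgi, had 4004, 6220 and 4816 counts, or 78.8%, 73.8% and 75.6% of its gene. It is 7982 bases long and 83.4% intronic, and by TPM, which corrects for that length, its share was 34.6%, 29.0% and 30.9%. Trappc4-202, of a subunit of the TRAPP tethering complex, had 73.9%, 67.7% and 64.2%. Prelid1-202, of a mitochondrial lipid transfer protein, had 2064, 5031 and 3916 counts, or 62.3%, 68.5% and 65.3%. Its 82-base intron makes up 6.81% of the transcript, so most of its bases are shared with the coding message.

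The highest share was that of Olfr56-205, annotated to an olfactory receptor gene, with 1751, 2350 and 2707 counts and 99.8%, 99.9% and 99.5% of the gene. The gene overlaps Ifi47, an interferon-inducible GTPase gene, on the same strand, and 4.01% of the transcript's bases lie in exons of Ifi47. Exoc3l4-211 had 67.6, 249 and 126 counts, or 74.0%, 86.3% and 86.9%, and 50% of its bases lie opposite exons of Gm10425. Tmem132a-203 had 70.3%, 76.5% and 73.6% of its gene, with 16.4% of its bases opposite exons of Slc15a3, itself the gene of an abundant member described below. In all, 16 of the 38 (42.1%) touch exons of another gene, against 19.1% of all 5838. The other transcripts of the 15 with the highest lowest-library shares belong to Asb6, Gm21188, Trim30b, Ncapg2 and Tnni2. Trim30b and Gm21188 are uncertain, since close gene copies can share reads. Tnni2-203, of a troponin of fast muscle, ranged most of these 15, at 100%, 83.8% and 60.6% of 66.0, 137 and 115 gene counts.

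Few of the bases of the high-share transcripts are intronic. The median was 11.9%, against 45.1% over all 5838 and 57.5% over those with the highest share in replicate 3 described below. A whole intron of a coding transcript is held by 20 of the 38 (52.6%), against 42.4% over all 5838, and 6 of the 38 have no base that is absent from every other transcript of the gene. Ppp1r3e-204 has no base in an intron of a coding transcript, and Zcchc24-202 has 0.0255% of its bases there. The 26 introns held whole had a median of 190 bases and a GC content of 57.6%. Of the 38, 26 were also at 50% or more in every library by TPM and 29 in the tables made directly from the reads. For Zcchc24-202 the latter gave 35.3%, 32.5% and 35.4%, and for Cep250-206, of a centrosome protein, 46.5%, 43.8% and 43.0%.

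The most abundant retained-intron transcripts by count came from genes that macrophages express strongly. Their shares stayed under a ratio of 2 between the libraries, with the ratio at 1.60 for Slc15a3-203 and 1.38 for Pirb-202. Counts are not corrected for length, so their order is not an order of molecules. H2-K1-215, of a class I heavy chain, had 10795, 19975 and 19601 counts, or 11.5%, 12.0% and 12.4%, and 8.96%, 8.49% and 8.25% from reads. By TPM its mean share was 44.2%. Class I genes are close copies of each other, so the assignment between them is uncertain. Pirb-202, of an inhibitory immunoglobulin-like receptor with close relatives on the same chromosome, had 11216, 14623 and 18795 counts, or 48.3%, 38.9% and 53.7%. The read-derived tables gave 65.7%, 64.3% and 64.7%, a higher level with little difference between libraries. Itm2b-202, of a membrane protein, had 17%, 16.6% and 15.2%, and 27.8%, 31.2% and 26.7% from reads. Ctsb-202, of the protease cathepsin B, had 2.40%, 2.41% and 2.23% of a gene of far higher counts, and 6.80%, 7.91% and 6.78% from reads. Tmed10-202, of another p24 cargo receptor, had 48.3%, 50.2% and 50%. Wnk1-208, of a kinase of ion transport, had 18.6%, 18% and 16.6%, and 7.22%, 5.47% and 4.07% from reads. Slc15a3-203, of a lysosomal peptide transporter, had 2479, 8275 and 6022 counts, or 11.3%, 18.1% and 15.2%, lowest in replicate 1. Psmb8-205 and Ncl-202, described above, were also among the 10 most abundant. None of the 10 differed between libraries by a ratio of 2. The level of a share thus depended on the estimate for several of them. Several also hold little intron sequence. In Wnk1-208, Tmed10-202 and H2-K1-215, 0.920%, 1.38% and 4.38% of the bases lie in introns of coding transcripts, with no whole intron. Slc15a3-203 has 29.3% there. No base of H2-K1-215 or Pirb-202 is absent from every other transcript of its gene. Such shares are therefore not a measure of retained introns.

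The whole class was more abundant in replicate 3. Retained-intron transcripts of coding genes took 1.20%, 1.15% and 2.27% of all expected counts, 1.94-fold higher in replicate 3 than the mean of the other two. Nonsense-mediated decay transcripts, which are also products of coding genes, took 1.16%, 1.15% and 1.22%, and processed transcripts 0.697%, 0.687% and 0.794%. Over the 3 libraries retained-intron transcripts averaged 1.54% ± 0.636 (SD, n = 3) and decay transcripts 1.18% ± 0.0405. This difference of 0.364 percentage points was not larger than its spread of 0.595 (two-sided exact sign-flip permutation test, p = 0.5, smallest possible p 0.25). The difference of 0.814 points from processed transcripts had the same sign in every library and the smallest p the design allows, 0.25. Without replicate 3 the mean for retained-intron transcripts was 1.17%. These values are counts, which are not corrected for length. By TPM retained-intron transcripts lay above decay transcripts in every library, which was not tested. They took 0.874%, 0.802% and 1.42% of TPM, against 0.493%, 0.463% and 0.529% for decay transcripts.

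**Figure D3:**
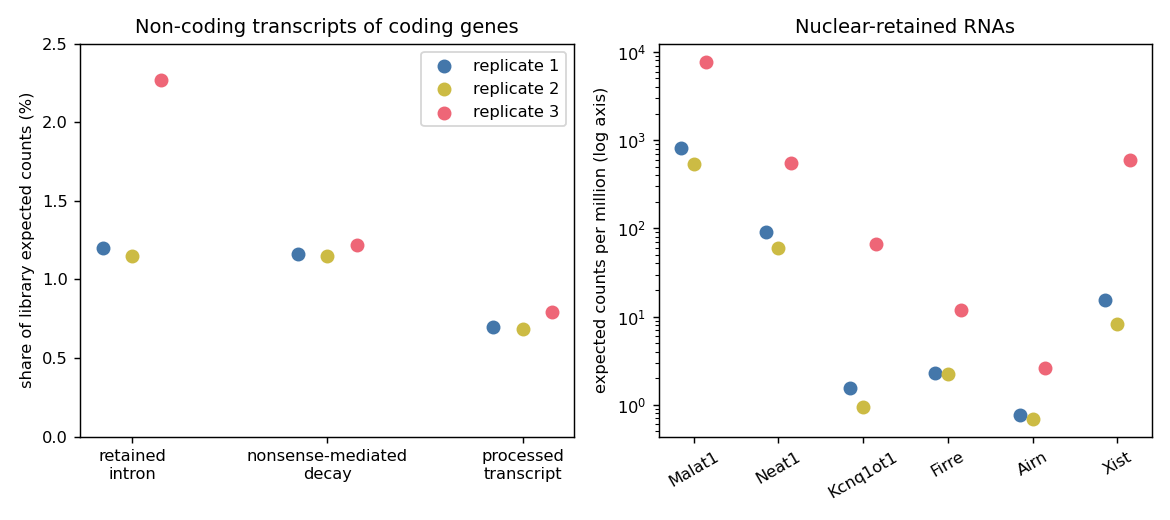
Left, share of library expected counts (y axis, %) on 3 classes of transcripts of coding genes other than protein_coding, and right, CPM of nuclear-retained RNAs (log axis), 1 point per library. In replicate 3 the retained-intron share is 2.27% against 1.20% and 1.15%, while the decay class is at 1.22%, 1.16% and 1.15%, and each of the 6 RNAs plotted is highest in replicate 3.

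Share by share, 4759 of the 5821 transcripts tested differed between libraries (81.8%), by a chi-square test on rounded counts with Benjamini-Hochberg adjusted p under 0.05 and a ratio of highest to lowest share of 2 or more. The same criteria called 40.3% of all 28935 transcripts tested. Replicate 3 was highest in 4422 of those (76.0% of the tested), against 27.2% of all transcripts and 15% of those that are not members. Replicate 1 was highest in 139 (2.39%) and replicate 2 in 198 (3.40%), against 6.19% and 6.87% of all transcripts. Where the gap also had to exceed 3 combined posterior SDs, 4012 (68.9%) were called, against 22.4% of all transcripts. The test compares these 3 libraries with counting error alone and no condition. A transcript can also pass the rule through replicate 3 alone, so these counts lean towards replicate 3. Without replicate 3, 599 of 2732 differed between replicates 1 and 2 (21.9%), against 15.8% of all transcripts.

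A choice of transcripts that did not use the libraries compared gave the same order. Among 3086 retained-intron transcripts with 10 or more counts in replicate 2, for the transcript and for the rest of its gene, 2408 had a higher share in replicate 3 than in replicate 1 (78.0%), with a median ratio of 2.27. The same choice among nonsense-mediated decay transcripts gave 50.8% with a median ratio of 1.01, and among protein_coding transcripts 42.9% with 0.982. Chosen on replicate 1, 75.4% of retained-intron transcripts were higher in replicate 3 than in replicate 2. Chosen on replicate 3, 35.8% were higher in replicate 2 than in replicate 1. The median ratio of replicate 2 to replicate 1 was 0.728 over those 8381 transcripts, and of replicate 3 to replicate 2 it was 1.89 over the 2322 chosen on replicate 1. Each choice holds other transcripts, at other levels of share, so these ratios do not rank the distances between libraries.

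As a ratio, the excess in replicate 3 was large for low shares and was not seen from 20% upwards. Among transcripts under 1% of their gene in replicate 2, the median ratio of replicate 3 to replicate 1 was 5.25, and 91.5% were higher. From 1% to under 5% it was 1.97, and from 5% to under 20% it was 1.21. From 20% to under 50% it was 0.957 and from 50% it was 0.976, over 162 and 58 transcripts. Of the 37 high-share transcripts tested, 26 (70.3%) differed between libraries with an adjusted p under 0.05 at any ratio, as did 78.7% of all transcripts. Their limit of 50% in every library keeps their ratio from passing 2, so the ratio says nothing of them. Nuclear RNAs such as Malat1 were also higher in replicate 3, and their part in this result was not tested. In bulk RNA, more molecules per cell and more cells or nuclei that carry them cannot be told apart.

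**Figure D4:**
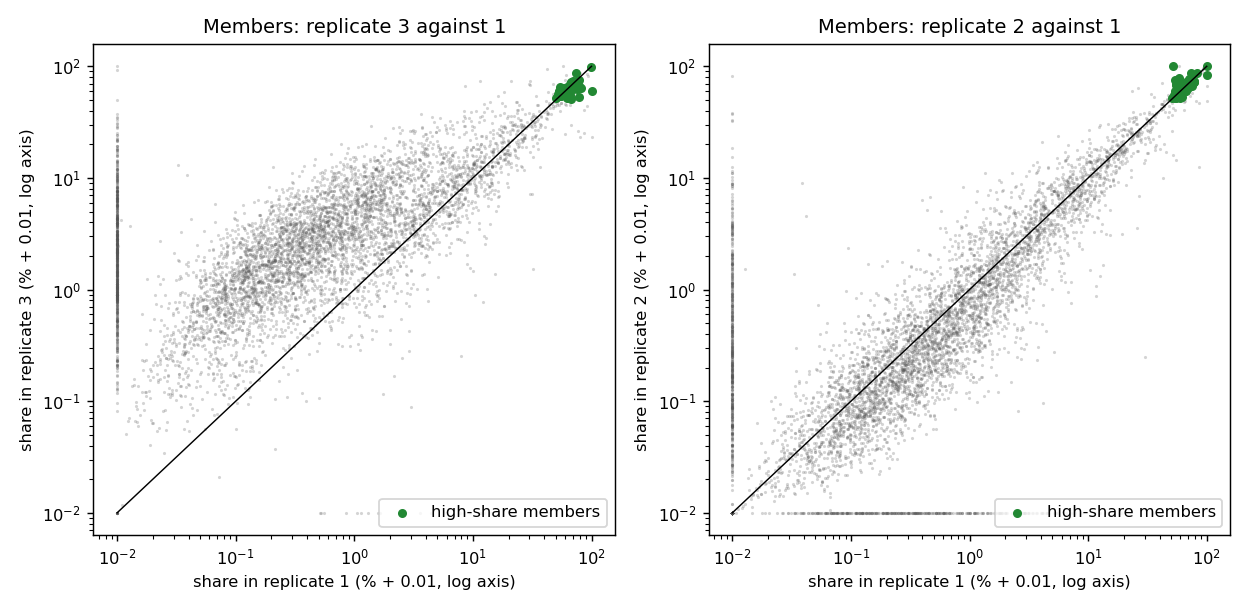
Share of the gene's counts of each of the 5838 transcripts (% plus 0.01, log axes), with replicate 3 against replicate 1 on the left and replicate 2 against replicate 1 on the right, the line of equality in black and the 38 high-share transcripts in green. On the left most points under a few percent lie above the line, while on the right they lie around it, and the green points lie at the line in both.

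Gene lists were read in 2 ways. The calls cover members, which could pass the rule through replicate 3 alone, and 76% of all members were called with replicate 3 highest. Transcripts chosen on replicate 2 alone, added after seeing the data, were compared between replicates 3 and 1, where 78.0% of 3086 were higher in replicate 3. Neither is a test of a list against the others.

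Genes of SR proteins and the kinases that phosphorylate them had 45 transcripts, of which 40 were called with replicate 3 highest (88.9%). Of the 31 chosen on replicate 2, 29 were higher in replicate 3 than in replicate 1. Pooled over the list, the retained-intron share was 1.64%, 1.21% and 9.05%. Srsf5-212 had 135, 154 and 1675 counts, or 7.35%, 5.24% and 31.5% of its gene. It holds intron 5 of Srsf5-201, of 1229 bases, with an in-frame stop at base 7. Srsf2-203 had 88.1, 103 and 975 counts, or 4.63%, 2.54% and 20.0%, and its introns lie after the coding part. Srsf11-208 had 3.89%, 2.26% and 17.5%, and Son-214, of a large speckle protein, 0.466%, 0.176% and 2.89%. In each of the 4 replicate 3 lay above both others by a factor of more than 4. The related gene Rsrp1, named after its values were seen, gave the transcript with the largest change in percentage points that is described here. Rsrp1-204 had 1060, 776 and 11518 counts, or 30%, 14.4% and 68.3% of the gene, and the read-derived tables gave 28.2%, 13.1% and 65.0%.

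Among hnRNPs and further RNA-binding splicing factors 58 of 63 transcripts were called with replicate 3 highest (92.1%), and 32 of 33 chosen on replicate 2 were higher in replicate 3 than in replicate 1. Their pooled shares were 1.03%, 0.686% and 5.35%. Mbnl1-205, of a splicing regulator, had 0.496%, 0.330% and 4.25%, and Ddx39b-204, of a helicase of splicing and export, 10.8%, 9.44% and 20.0%. In the spliceosome core 31 of 37 were called so (83.8%), and 16 of 18 chosen on replicate 2 were higher in replicate 3. Sf3b1-203, of a component that binds the branch point, had 0.743%, 0.415% and 5.83%, while Snrnp200-204, of a helicase, had 2.04%, 1.76% and 2.11% and did not pass the test. All 11 transcripts of genes of nonsense-mediated decay and the exon junction complex were called with replicate 3 highest, at pooled shares of 0.214%, 0.306% and 1.81%, but only 2 could be chosen on replicate 2, both higher in replicate 3. Smg5-203 had 0.576%, 0.164% and 5.01%. Of the transcripts of mRNA export genes 10 of 14 were called so (71.4%), below the share over all members, and 8 of 9 chosen on replicate 2 were higher in replicate 3. Tpr-204, of a nuclear pore protein, was called with replicate 2 highest, at 0.1%, 0.834% and 0.727%.

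Genes of the response to bacterial lipopolysaccharide were counted the same way. Of 37 transcripts of TLR4 and NF-kB signalling 31 were called with replicate 3 highest (83.8%), at pooled shares of 0.699%, 0.853% and 4.25%, and 20 of 23 chosen on replicate 2 were higher in replicate 3. Ikbke-206, of a kinase that activates interferon regulatory factors, had 66.2, 82.6 and 1456 counts, or 0.859%, 0.646% and 9.35%, and holds 3 whole introns. Tnfaip3-205, of the inhibitor A20, had 0.813%, 0.719% and 5.22%, and Irak1-222 had 3.71%, 2.93% and 6.09%. Cd14-202, of the coreceptor, had 3.95%, 4.33% and 3.95%, with no call. Of 45 transcripts of interferon-stimulated genes 38 were called so (84.4%), at pooled shares of 0.643%, 0.647% and 1.38%, and all 28 chosen on replicate 2 were higher in replicate 3. Parp14-203 had 207, 154 and 1981 counts, or 0.469%, 0.216% and 2.62%, whereas the more abundant Irf7-210, of an interferon regulatory factor, had 5.17%, 4.93% and 5.97% and stayed under the ratio of 2. Inflammatory mediators had 3 transcripts in 24 genes. Ccl2-202 had 24.5, 31.8 and 69.7 counts and Ccl5-202 had 82.4, 80.8 and 191 counts, both called with replicate 3 highest. Cxcl2-203 had 8.99, 13.0 and 10 counts, with posterior SDs of 3.92, 2.57 and 4.13. It was called with replicate 1 highest, at 6.38%, 1.17% and 3.95% of 141, 1113 and 253 gene counts. That call follows the gene total rather than the transcript's own counts.

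Antigen presentation genes were the list with the highest pooled shares in replicates 1 and 2, at 4.86%, 4.75% and 5.99%, and 19 of 39 transcripts were called with replicate 3 highest (48.7%). Of 37 chosen on replicate 2, 33 were higher in replicate 3 than in replicate 1, at a median ratio of 1.68. H2-Q7-206, of another class I heavy chain, had 41.1%, 42.1% and 40.6%, with no call. Lysosomal genes had 29 of 39 called so (74.4%), and 26 of 29 chosen on replicate 2 higher in replicate 3, at pooled shares of 0.823%, 0.788% and 0.952%. In Ctsb the 2 retained-intron transcripts named differed: Ctsb-203 had 50, 81.0 and 940 counts and was called, while Ctsb-202, given above, was not. Translation genes had 40 of 46 called so (87%), and 30 of 32 chosen on replicate 2 higher in replicate 3, at 0.781%, 0.868% and 1.53%. Rpl3-204, of a ribosomal protein, had 0.801%, 0.433% and 3.16%. Rpl13a-213 had 8.48%, 15.5% and 14.2%, lowest in replicate 1 and under the ratio of 2. Its share is uncertain, since 85.1% of its bases lie in same-strand exons of other genes, Gm45713 and Snord33. No base of it is absent from every other transcript of Rpl13a.

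**Figure D5:**
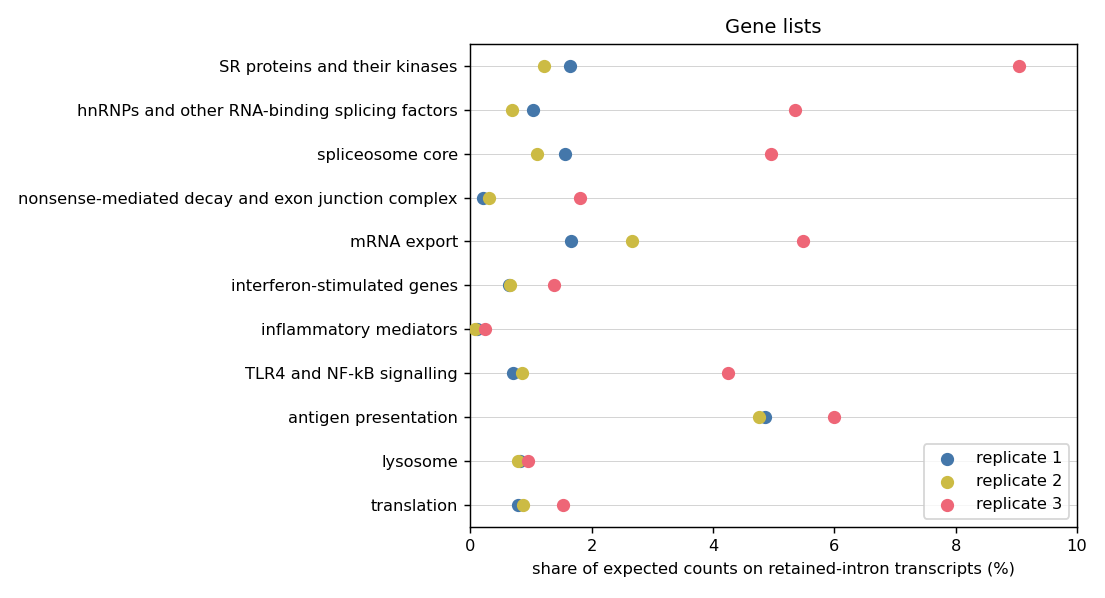
Share of the pooled expected counts of each gene list that lay on retained-intron transcripts (x axis, %), 1 point per library. In replicate 3 the SR protein list reaches 9.05%, against 1.64% and 1.21%, while antigen presentation is at 5.99%, against 4.86% and 4.75%, and the lysosome list under 1% in all 3 libraries.

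Some genes have many such transcripts, which share exons and cannot be counted as independent. Lilrb4a, of an inhibitory leukocyte receptor, Ankrd17 and Phip had 9 each. In Lilrb4a, transcript 207 had 143, 165 and 1452 counts, or 2.01%, 0.811% and 10%, and transcript 211 had 5.77%, 4.78% and 11.4%, both highest in replicate 3. Transcript 204 of the same gene went the other way, with 107, 318 and 60.5 counts, or 1.5%, 1.57% and 0.419%. Lilrb4a and its neighbour Lilr4b are close copies, so the split between them is uncertain. From alignments the transcripts of Phip were each under 3% of the gene. They passed the rule mainly through replicate 3, for example Phip-215 with 5.31, 7.45 and 159 counts. Phip-213 had 1.11%, 0% and 1.84% from alignments but 7.58%, 8.66% and 10.9% from reads. Most transcripts of Ankrd17 were called with replicate 3 highest, for example Ankrd17-213 with 3.07, 5.17 and 103 counts. Only Ankrd17-208 and Ankrd17-212 were not. Ankrd17-208 had 96.6, 353 and 359 counts, or 1.47%, 3.27% and 3.09%, called with replicate 2 highest. Ankrd17-212 had 58.6, 35.0 and 100 counts, or 0.890%, 0.324% and 0.865%, called with replicate 1 highest.

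The 6 largest ratios between libraries all involved a library at 0. Uba7-210, of the enzyme that activates the ubiquitin-like protein ISG15, had 0, 0 and 855 counts, or 7.10% of the gene in replicate 3. It holds introns 8 and 15 of Uba7-201, of 376 and 85 bases. Lilrb4a-209 had 187, 0 and 2662 counts, Ptbp1-213, of a splicing repressor, 54.0, 0 and 415, Huwe1-206 26.2, 0 and 289, and Slc25a22-210 9.77, 0 and 241. In these 4 replicate 3 was highest and replicate 2 was at 0 despite having the most counts. Atp6v0b-204, of a proton pump subunit, had 0, 385 and 472 counts, but the read-derived tables put it at 0%, 0.0796% and 0.119% of its gene, against 0%, 3.82% and 5.89% from the alignments. Uba7-210, Lilrb4a-209, Slc25a22-210 and Atp6v0b-204 have no base that is absent from every other transcript of the gene. Their counts, a 0 included, thus rest on the assignment of shared reads. Such bases make up 19.0% of Ptbp1-213 and 10.3% of Huwe1-206.

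The 2 ways of estimating counts were compared after 0.1 percentage points were added to each share. The results were within a factor of 2 of each other for 80.7%, 78.6% and 84.7% of the 5838 transcripts. Pairs with both shares under 0.1% meet this in advance, and the lower quartile from alignments was 0.0892%, 0.0775% and 1.09%. Over all 5838 the median share from the reads was 0.489%, 0.370% and 3.23%, also highest in replicate 3. Large disagreements touched several abundant transcripts. Npc1-206, of a lysosomal cholesterol transporter, had 18.1%, 17.9% and 16.3% from alignments and 3.16%, 1.54% and 3.25% from reads. Nlrc5-203, of the class I transactivator, had 0.0286%, 9.08% and 10.6% from alignments and 0.0119%, 0.257% and 1.29% from reads. Shares differed by over 10 percentage points between the methods in 184, 206 and 219 transcripts.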

How the data were processed

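Ribosome-depleted RNA of the cytosolic fraction was measured in 3 libraries of 1 group. Per the file headers, the authors deposited, for each library, expected counts and TPM per transcript and gene made from alignments, posterior means and SDs of those counts, and estimated counts and TPM per transcript made directly from the reads. The deposited posterior columns and interval bounds have no other normalization. Assembly mm10 and annotation M21 are those of the deposited notes; no source used here names the aligner, quantifier or strand setting. Rows that name no transcript of the annotation (26345, holding 0.418%, 0.248% and 0.165% of counts) were left out of totals.

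A share is a transcript's expected count over the sum of its gene. Transcript sums equalled the deposited gene counts within 0.03. Counts were rounded for the chi-square test (Benjamini-Hochberg over 28935 transcripts), and 0.5 was added for ratios. The procedure was checked on simulated counts. A retained intron is a coding transcript's intron lying whole inside an exon of the member, annotation gaps of a few bases included. Members, lists and tests were chosen with earlier results of these data known. The text names the 15 highest lowest-library shares, the 10 most abundant, up to 4 of each list, the 6 largest ratios, those at the limits and the 3 genes with most members, a few of which are not reported here; Rsrp1-204, Nlrc5-203 and other genes of the 38 were chosen after seeing their values. Scaling alternatives used edgeR 4.0.16 and DESeq2 1.42.0 in R 4.3.3, and the rest Python 3.11.15 with pandas 2.3.3 and scipy 1.17.1.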

Additional observations from a re-analysis of the deposited data

Results flagged for a closer look

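Retained-intron transcripts of genes with no protein_coding transcript lie outside the description above and still held a mean of 7124 expected counts over the libraries, far above the 3 counts that a count of 0 allows. There were 427 of them, 66 at a mean of 10 or more, with 3837, 5912 and 11622 counts in replicates 1, 2 and 3. BE692007-202 had 1754, 2243 and 2434 counts and Gm43305-201 had 561, 1515 and 1629. H2-Q5-203, of a class I gene copy, had 257, 434 and 554 counts. A930037H05Rik-205 had 66.7, 42.6 and 886 counts, highest in replicate 3, at a similar share of its gene in every library, 44.1%, 40.1% and 42.1%. These were not compared between groups, as the series has 1.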

How the results depend on the processing

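No paired analysis was possible because the series has 1 group. The number of transcripts was 1726 at a mean of 50, 1992 at 10 or more in every library, 15405 with no minimum beyond 0, 8083 from read-derived counts, and 2749 to 6827 with each replicate left out, lowest without replicate 3. High shares numbered 85 at a limit of 30%, 1 at 75%, 56 and 30 at gene means of 10 and 500, and 39 to 43 with each replicate left out. Transcripts that differed between libraries numbered 1094 at a mean of 50, of 1720 (63.6%), against 22.5% of all transcripts, and 599 to 5260 with each replicate left out. They numbered 5022 at a ratio of 1.5, 5236 with none, 6813 from read-derived counts, and 4811 and 4805 for levels scaled with TMM and DESeq2 size factors. A further demand, chosen after seeing the data, that the gap exceed 3 combined posterior SDs left 4012 (68.9%, against 22.4% of all transcripts). The mean of the 3 median shares, 1.14%, ranged from 0.366% to 1.55% with each replicate left out and from 1.21% to 1.54% under TPM, read-derived counts, posterior means and a narrower denominator. The total share ranged from 1.17% to 1.74% with each replicate left out. Of the named transcripts, 48 had a mean share by TPM that moved by more than the SD between libraries, 34 from read-derived counts and 0 from posterior means. Depth limits low shares, and a transcript's unique bases limit the assignment.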
